A study of Homo sapiens with 4 samples.

Results

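The zinc finger genes of chromosome 19 are the 264 RefSeq protein-coding genes of that chromosome whose symbol is ZNF, ZFP, ZSCAN, ZKSCAN or ZIM followed by a number, out of 20037 protein-coding genes placed on the assembled chromosomes. They comprise 250 ZNF, 7 ZSCAN, 5 ZFP and 2 ZIM symbols. The choice rests on the symbol alone and takes in a few loci that are not ordinary zinc finger genes: ZFP36 encodes tristetraprolin, an RNA-binding protein of another zinc finger class, and 4 symbols carry a hyphen (joint or divergent loci such as ZNF765-ZNF761). H3K9me3 at these genes was read from ChIP-seq peak lists of Ishikawa, a cell line established from a human endometrial cancer, in 2 groups. The NC cells are labelled as untreated, and the OE-KDM4A cells carry that name as their treatment. KDM4A is a histone demethylase that removes methyl groups from lysine 9 of histone H3. Each group had 1 immunoprecipitated and 1 input library, and the libraries of both groups carry the number 2. The labels do not give the vector, the clone or the level of KDM4A, and neither KDM4A nor the endometrial identity of the cells can be checked from peak lists.

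With 1 library per group, no difference between the lists has a replicate check and no test was run. The 95% intervals given are exact and take in counting error alone. A peak is an interval that the authors' caller found above its background, and its absence from a list does not show that the mark was absent. There were 1165 peaks for NC and 3785 for OE-KDM4A, and the read depth behind either is unknown.

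Most zinc finger genes of chromosome 19 belong to the C2H2 class, and many encode a KRAB domain. A KRAB protein binds DNA through its array of fingers and recruits TRIM28, which brings the H3K9 methyltransferase SETDB1 and the HP1 proteins that read the mark. Many of these proteins silence transposable elements, ZNF91 and ZNF93 being well-studied cases that act on SVA and LINE-1 elements. The genes arose by tandem duplication and lie in clusters, and in many cell types H3K9me3 covers the genes themselves, mainly towards the 3′ exons that encode the fingers.

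Few of these genes held a called peak in either list. None held one in both, which allows a share of up to 1.14% and so includes that of all protein-coding genes (95 of 20037, 0.474%). In the list of NC 4 of the 264 genes (1.52%, 0.414 to 3.83) had a peak in the gene span or within 5 kb of it, namely ZNF414, ZNF567, ZNF578 and ZNF813, against 2.45% of all protein-coding genes. In the OE-KDM4A list 15 genes (5.68%, 3.21 to 9.2) had a peak, against 5.34% of all protein-coding genes. The share in OE-KDM4A was thus near that of protein-coding genes as a whole, and both intervals include the share of all genes. The genes were ZNF439, ZNF69, ZNF700 and ZNF136, then ZNF14, ZNF486, ZNF257, ZNF728 and ZNF730, then ZNF875, ZNF570 and ZNF573, and ZNF227, ZNF235 and ZNF836, in their order along the chromosome. All 19 carry ZNF symbols, as do 250 of the 264 genes. None of the 7 ZSCAN, 5 ZFP and 2 ZIM genes had a peak in either list, but they are too few to be told apart from the ZNF genes.

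With the full lists, the other genes of the same chromosome showed the opposite order between NC and OE-KDM4A. Of the 1187 other protein-coding genes of chromosome 19, 37 (3.12%, 2.2 to 4.27) had an NC peak and 17 (1.43%, 0.836 to 2.28) an OE-KDM4A peak. These genes are shorter, with a median span of 12.6 kb against 23.3 kb for the zinc finger genes, so the comparison was also made per length. Summits per Mb of gene span numbered 0.661 (0.215 to 1.54) at zinc finger genes and 1.11 (0.733 to 1.62) at the other genes in NC. In OE-KDM4A they numbered 1.72 (0.915 to 2.94) and 0.495 (0.256 to 0.864). The OE-KDM4A intervals do not overlap, while the NC intervals do. The spans of all protein-coding genes held 0.297 summits per Mb in NC and 0.862 in OE-KDM4A. Per length the zinc finger genes therefore stood above all genes in both lists, unlike the share of genes, with the all-gene density inside the interval of the zinc finger genes in NC and below it in OE-KDM4A. In NC this was not particular to them, since chromosome 19 up to its last gene had 0.768 per Mb (0.717 in OE-KDM4A). Zinc finger genes on other chromosomes had 1.27 per Mb (0.763 to 1.98) in OE-KDM4A, an overlapping interval, and 0 (0 to 0.246) in NC. The 304 zinc finger genes on other chromosomes gave 5.59% in OE-KDM4A (17 genes, 3.29 to 8.8). In NC they gave 0 of 304, which allows a share of up to 0.987%. The plot of the shares sets these gene groups side by side.

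**Figure D1:**
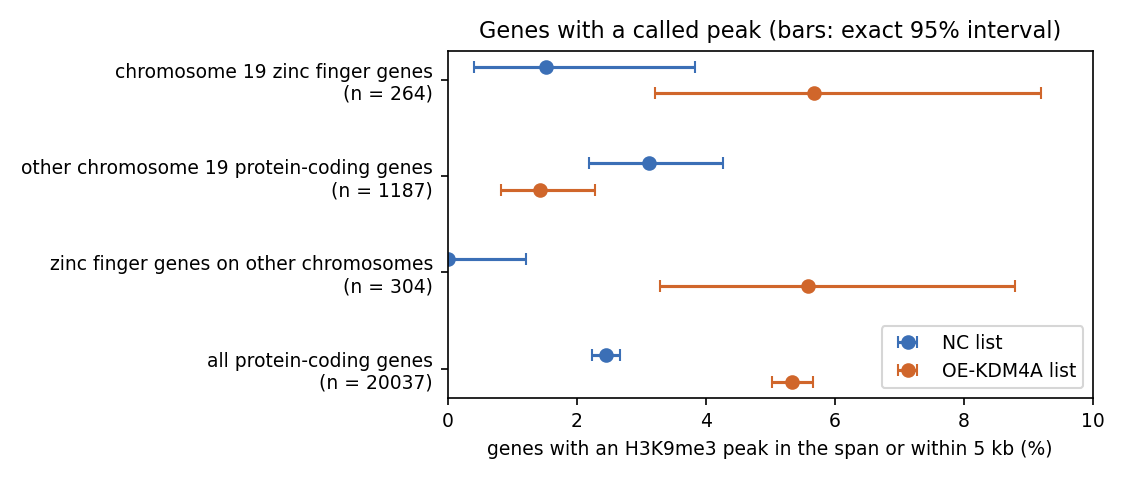
Percent of genes (x axis) with a called H3K9me3 peak in the span or within 5 kb, for 4 gene groups and both lists, with exact 95% intervals of counting error. In OE-KDM4A the zinc finger genes of chromosome 19 (5.68%) lie beside all protein-coding genes (5.34%) and above the other genes of chromosome 19 (1.43%), and in NC they lie at 1.52% and the other genes of chromosome 19 at 3.12%.

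Few of these peaks were strong. At a −log10 q of at least 5, no zinc finger gene of chromosome 19 had an NC peak, which allows a share of up to 1.14% (0.429% of all protein-coding genes did), and 3 had one in OE-KDM4A (1.14%, 0.235 to 3.28, against 1.16% of all protein-coding genes). Those 3 were ZNF14, ZNF136 and ZNF875. With the OE-KDM4A list limited to its 1165 peaks of highest −log10 q, 2 genes remained, ZNF14 and ZNF136 (0.758%, against 0.794% of all protein-coding genes). At this equal list length NC therefore had 4 such genes and OE-KDM4A 2, although the NC list then still held its weakest peaks and the shortened list none with a −log10 q under 5.91. The other genes of chromosome 19 then stood in the same order, with 37 in NC and 3 in OE-KDM4A (0.253%, 0.0522 to 0.737). At a −log10 q of at least 5 they had 6 in NC (0.505%) and 4 in OE-KDM4A (0.337%, 0.0919 to 0.861). At both limits the OE-KDM4A interval overlapped that of the zinc finger genes, 0.0919 to 2.71 at equal length.

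The 5 NC peaks are described first. The peak with the highest −log10 q stood at the 3′ end of ZNF567, a KRAB zinc finger gene on the plus strand (chromosome 19, 36666934 to 36727506, hg38). It ran from 36727152 to 36727289, with its summit 0.29 kb before the end of the gene, a fold enrichment of 5.52 and a −log10 q of 3.78. ZNF578 (52453553 to 52516882) was the only NC gene with more than 1 peak. Its peaks lay at 52459828 to 52459986, 6.39 kb after the start (fold 4.83, −log10 q 3.02), and at 52507134 to 52507308, 9.69 kb before the end (fold 4.18, −log10 q 1.72). They lay at opposite ends of the same gene. ZNF414 is the shortest of the 4 genes at 4.49 kb (8509678 to 8514167, minus strand), and its peak at 8511862 to 8512054 lay near mid-gene (fold 4.45, −log10 q 2.32). ZNF813 (53467733 to 53496255) held the weakest, at 53483184 to 53483305, also near mid-gene (fold 4.04, −log10 q 1.57). In every one of the 5 the −log10 q was below the NC list's median of 3.83.

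In OE-KDM4A the strongest peak lay in ZNF14, a KRAB zinc finger gene on the minus strand (19710472 to 19733112). It ran from 19722465 to 19722591, 10.6 kb after the start, with a fold enrichment of 6.82 and a −log10 q of 6.71, and ranked 1041 of 3785 in the list. NC had no peak in ZNF14, but one lay 9.27 kb outside the gene at 19742380 to 19742514 (fold 3.65, −log10 q 1.41). ZNF136, another KRAB gene (12163096 to 12189871), held a peak at its 3′ end, at 12189466 to 12189618, with the summit 0.311 kb before the end of the gene (fold 6.42, −log10 q 6.1). ZNF875, also known as HKR1 (37312837 to 37364455), held one at 37355253 to 37355363, 9.15 kb before its end (fold 6.3, −log10 q 5.62). These 3 stand apart from the rest by −log10 q, since the next value was 3.62.

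That next peak lay in ZNF235 (44286348 to 44305025), at 44297534 to 44297642, with a fold of 4.94. ZNF257 and ZNF728, in the same cluster, had peaks with the same fold of 5.25 and the same −log10 q of 3.58, at 22080986 to 22081157 and at 22983637 to 22983783. Both summits stood on 9 fragments over a background of 0.905. The peak at OR10H3, outside the zinc finger genes, had the same values, so the match is not particular to these genes. ZNF439 (11848726 to 11869486) followed with 3.47, at 11854567 to 11854694. The other 8 peaks had a −log10 q between 1.34 and 2.66. ZNF573 and ZNF227 were equal at 2.66, ZNF486 had 2.58, ZNF730 had 2 peaks of 1.85, and ZNF570 had 1.85. A single peak at 11935782 to 11935922 (−log10 q 1.73) counted for both ZNF69 and ZNF700, whose annotated spans overlap, so the 15 genes rest on 15 peaks only because ZNF730 held 2. ZNF836 had the lowest value, from a peak 3.85 kb beyond the gene (52150124 to 52150254). For ZNF69 and ZNF700, the file cannot tell which gene the peak belongs to.

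The ChIP fragments stacked at each summit and the control background could be worked out for all 20 peaks, using their deposited fold and −log10 p. At zinc finger genes the summits held 7 to 10 fragments in NC (median 9) over backgrounds of 0.811 to 1.28. In OE-KDM4A they held 7 to 12 fragments (median 9) over backgrounds of 0.905 to 1.56, and 9 of the 15 stood at the lowest background of the list, as did 50.2% of the peaks of the whole list with recovered values. The smallest recovered number was 7 in each list, over 1149 of the 1165 NC peaks and 3708 of the 3785 OE-KDM4A peaks, so the peaks at zinc finger genes lie at or a few fragments above it. The median fold enrichment was 4.45 in NC and 4.72 in OE-KDM4A, against 4.36 and 4.16 for the other peaks of chromosome 19 and 4.39 and 5.2 for the whole lists. The NC peaks together covered 787 bp and those of OE-KDM4A 2004 bp of the 9.6 Mb taken up by the genes and their 5 kb flanks.

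**Figure D2:**
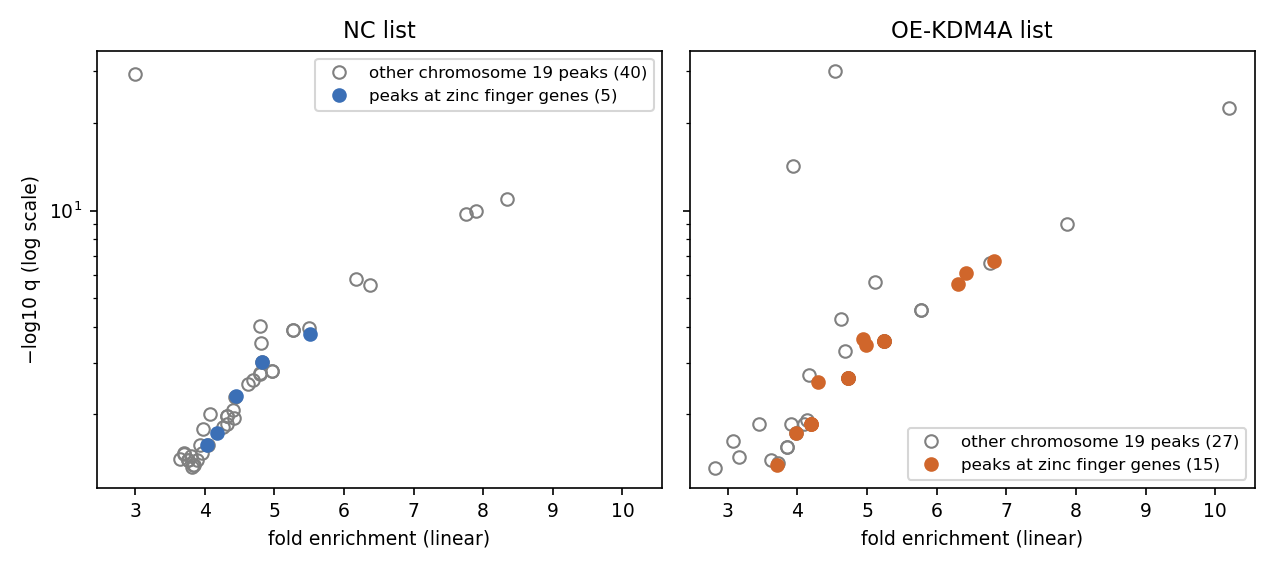
Fold enrichment (x axis, linear) against −log10 q (y axis, log scale) of every chromosome 19 peak in the NC list (left) and the OE-KDM4A list (right), both as the authors' caller gave them, with peaks at zinc finger genes filled. The filled points end at a −log10 q of 3.78 in NC and 6.71 in OE-KDM4A, and open points reach 29.4 and 30.2.

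In both lists the top peak of chromosome 19 by −log10 q lay near zinc finger genes but outside the 5 kb limit, at the same place. In NC it ran from 44411409 to 44411566 and in OE-KDM4A from 44411374 to 44411582, between ZNF285 (44382298 to 44401608) and ZNF229 (44426254 to 44448578), 9.8 kb and 9.77 kb from ZNF285 and 14.7 kb from ZNF229. Its −log10 q was 29.4 in NC and 30.2 in OE-KDM4A. The fold enrichment was 3 in NC, with 172 fragments on a background of 56.6, and 4.54 in OE-KDM4A, with 99 fragments on 21. The control background there was far above the 0.811 to 1.56 under the peaks at zinc finger genes, and its part in the call was not tested. Of the 4 chromosome 19 regions called in both lists this was the only one within a zinc finger cluster. The others lay at MBD3, RYR1 and SAMD4B.

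A gap of more than 1 Mb between neighbouring members split the genes into 16 clusters, 7 of them with 10 or more genes and together 242 of the 264 genes. All clusters made up 19.1 Mb, or 32.6% of the chromosome up to its last gene. They held 10 of the 45 chromosome 19 peaks of NC (22.2%, 11.2 to 37.1) and 24 of the 42 of OE-KDM4A (57.1%, 41 to 72.3), counting peaks within 5 kb of a cluster. The 2 full lists thus had nearly the same number of peaks on the chromosome but a different share of them in the clusters. Most OE-KDM4A peaks in the clusters had a −log10 q under 5.91, the lowest value at equal list length. The counts per cluster therefore apply to the full lists. Each share comes from 1 library, and the difference was not tested.

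The cluster from ZNF101 to ZNF254 (19668153 to 24129968) held the most peaks in OE-KDM4A. It contains 37 genes over 4.46 Mb, among them ZNF91 and ZNF93. OE-KDM4A had 10 peaks there (2.24 per Mb, 1.07 to 4.12), of which 6 lay at ZNF14, ZNF486, ZNF257, ZNF728 and ZNF730 and 4 between genes. The strongest of the cluster was among the latter, at 22115691 to 22115816, 24.2 kb from ZNF257 (fold 7.87, −log10 q 9.01). Of the 10, only this peak and the one in ZNF14 (−log10 q 6.71) reached 5.91, the limit at equal list length. NC had 3 peaks (0.672 per Mb, 0.139 to 1.96), all between genes, the nearest members being ZNF14, ZNF85 and ZNF99. None of these 3 overlapped an OE-KDM4A peak.

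In the cluster from ZNF653 to ZNF791 (11483429 to 12633834, 25 genes) OE-KDM4A had 3 peaks at 4 genes, ZNF439, ZNF69, ZNF700 and ZNF136, and NC had none. From ZNF565 to ZNF573 (36182060 to 37779586, 29 genes) OE-KDM4A had 3 peaks, at ZNF875, ZNF570 and ZNF573, and NC 1, at ZNF567. From ZNF575 to ZNF296 (43530835 to 45076478, 24 genes) OE-KDM4A had peaks at ZNF227 and ZNF235, and both lists had the one beside ZNF285. With the full lists these clusters, like the first, had more OE-KDM4A than NC peaks. Of their OE-KDM4A peaks, only those at ZNF136 and beside ZNF285 reached the −log10 q of 5.91 that marks equal list length. The cluster from ZNF175 to ZNF331 (51571283 to 53580269, 41 genes) went the other way, with 3 NC peaks, at ZNF578 and ZNF813, and 2 in OE-KDM4A, 1 at ZNF836 and 1 between genes, 23.8 kb from ZNF845. From ZNF557 to ZNF846 (16 genes) each list had 2 peaks, and only the NC peak in ZNF414 lay at a member.

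The cluster with the most genes had no peak at all. It runs from ZNF628 to ZNF446 (55476617 to 58489533) and holds 70 genes over 3.01 Mb next to the telomere of the long arm. Neither list had a peak in it or within 5 kb, which allows up to 1.22 peaks per Mb for each list and, for the genes, a share of up to 4.29%. The share of all protein-coding genes was under this limit in NC (2.45%) and above it in OE-KDM4A (5.34%). All clusters of 10 or more genes, this one included, had 0.606 summits per Mb in NC and 1.39 in OE-KDM4A. The absence was not tested. The median distance from its genes to the nearest peak was 2280 kb in NC and 4200 kb in OE-KDM4A. The remaining 9 clusters hold 1 to 5 genes each and had no peak at a member in either list, with 1 OE-KDM4A peak between ZNF541 and ZNF114. They include the single genes ZNF333, ZNF536, ZNF507 and ZNF473, of which ZNF536, a neuronal zinc finger gene, is the longest of all 264 at 488 kb. In all, 92 genes lay in the 10 clusters without a peak at a member.

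**Figure D3:**
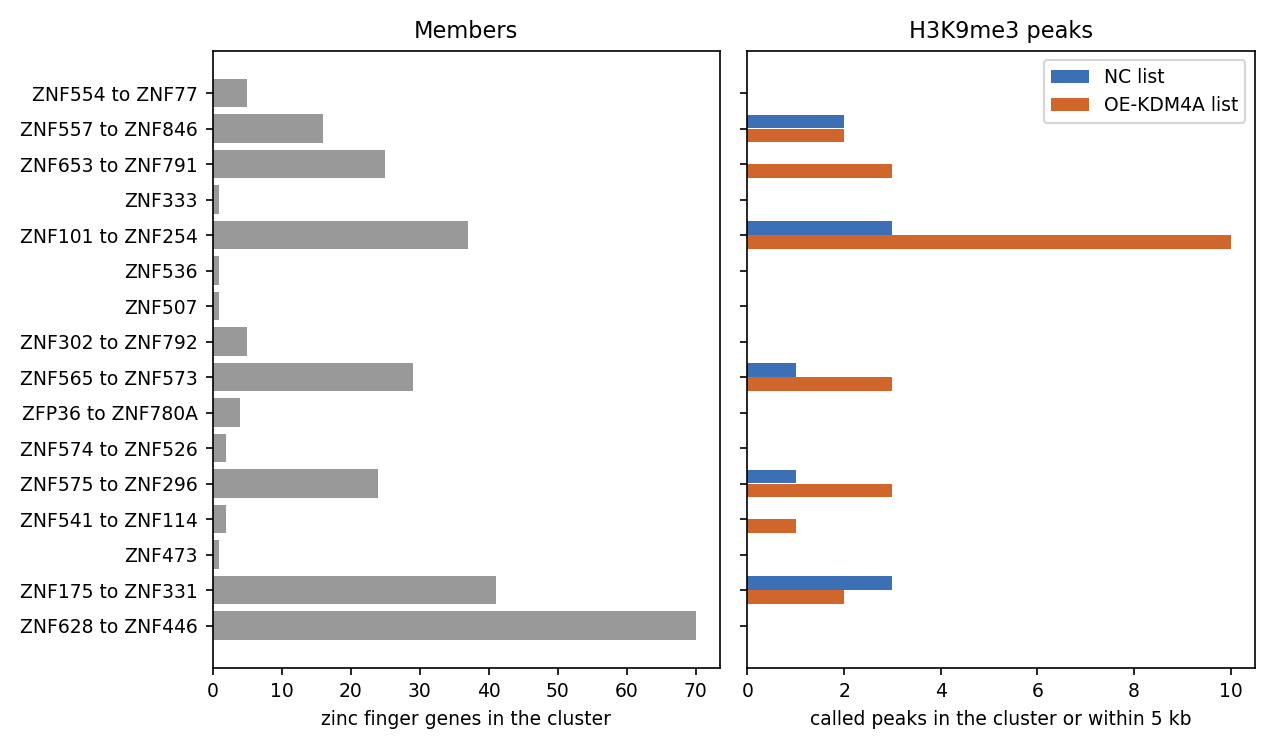
Number of zinc finger genes (left) and of called H3K9me3 peaks in the cluster or within 5 kb of it (right) for the 16 clusters in their order along the chromosome, each named by its first and last gene. In the full lists the cluster ZNF101 to ZNF254 has 10 OE-KDM4A and 3 NC peaks, and the cluster ZNF628 to ZNF446, with 70 genes, has none.

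Position along the gene could be read for genes with a strand in the RefSeq promoter table (GRCh38.p14), which holds 228 of the 264 genes. In NC, 4 of the 5 summits lay beyond the middle of the span, and in OE-KDM4A 11 of the 15 gene and peak pairs did, including the 2 beyond the 3′ end (ZNF570 by 0.146 kb and ZNF836 by 3.93 kb). No summit lay in the 5 kb before a gene. ZNF439 in OE-KDM4A (28.4% of the span) and the first ZNF578 peak in NC (10.1%) were the only ones in the first of 3 equal parts of the span. The middle part held 2 NC and 8 OE-KDM4A pairs and the last part 2 and 4. ZNF567 and ZNF136 had theirs at 99.5% and 98.8% of the span. Among pairs at the other genes of chromosome 19, 17 of 30 in NC and 8 of 14 in OE-KDM4A lay beyond mid-span. ZNF728 has no strand in the table and is left out. Exons were not used here, so a summit near the 3′ end is not shown to lie in the exon that encodes the fingers.

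**Figure D4:**
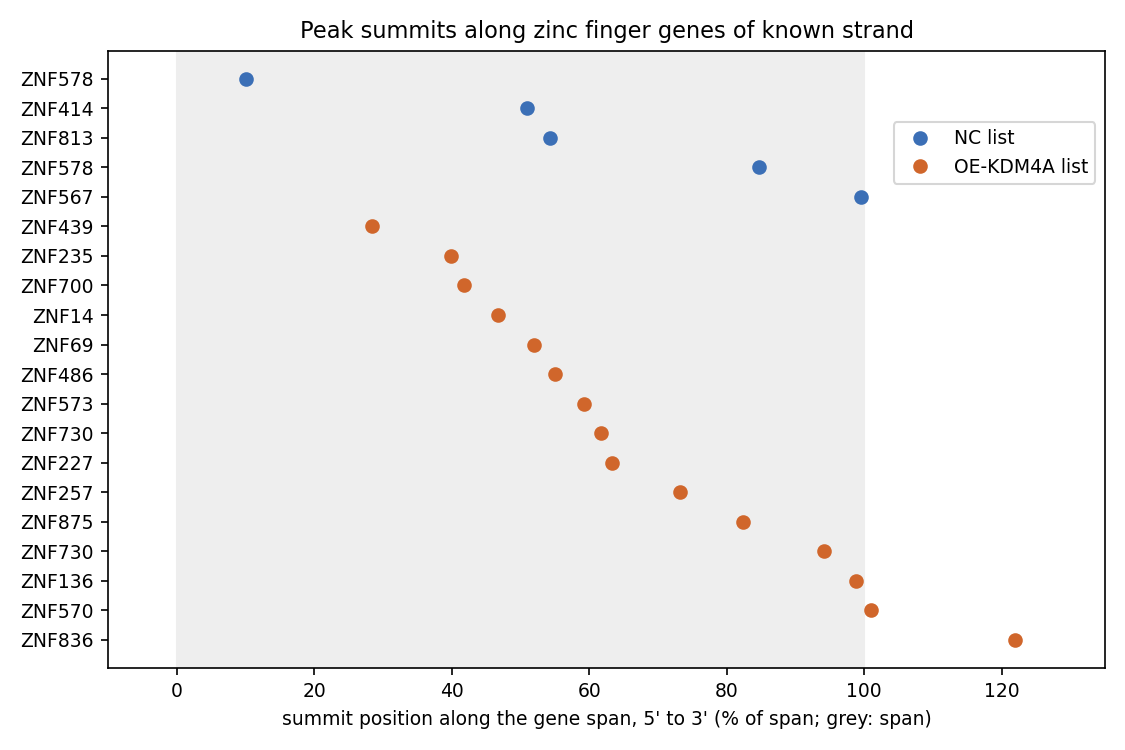
Position of each peak summit along its zinc finger gene from the 5′ end (0) to the 3′ end (100% of the span, grey), for the genes with a known strand in both lists. The first ZNF578 peak (10.1%) and ZNF439 (28.4%) lie nearest to the 5′ end, ZNF567 and ZNF136 at the 3′ end, and ZNF570 and ZNF836 beyond it.

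Called peaks at gene starts were rare on the whole chromosome, and the zinc finger genes had none. None of the 286 promoter windows of the 228 genes, each 250 bases before to 50 after an annotated start, overlapped a peak in either list. At the other genes of chromosome 19 the promoter windows of SAMD4B in both lists and ARRDC2 in OE-KDM4A did, out of 1262 windows. The count of 0 therefore does not set the zinc finger genes apart. The summits nearest to a start at zinc finger genes were 2.29 kb after that of ZNF414 in NC and 2.64 kb after that of ZNF730 in OE-KDM4A. The span of ZNF730 reaches further upstream than this start, so the same peak lies at 61.7% of the span. The median distance to the nearest start was 15.5 kb in NC and 19.2 kb in OE-KDM4A.

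The promoters of 5 genes are given to show the sequence without a called peak: those of ZNF414 and ZNF730, whose starts lay nearest to a summit, of ZNF567 and ZNF14, which held the strongest peak of each list, and of ZNF257, in the same cluster as ZNF730. Each is 300 bases, 5′ to 3′ on the gene's strand, from RefSeq on GRCh38.p14, and the capitals mark each CG pair, the site of DNA methylation in human cells. The windows are chr19:8514118-8514417 (minus) for ZNF414, chr19:36666684-36666983 (plus, the more upstream of its 2 starts) for ZNF567, chr19:19733063-19733362 (minus) for ZNF14, chr19:22052234-22052533 (plus) for ZNF257 and chr19:23116775-23117074 (plus) for ZNF730.
ZNF414: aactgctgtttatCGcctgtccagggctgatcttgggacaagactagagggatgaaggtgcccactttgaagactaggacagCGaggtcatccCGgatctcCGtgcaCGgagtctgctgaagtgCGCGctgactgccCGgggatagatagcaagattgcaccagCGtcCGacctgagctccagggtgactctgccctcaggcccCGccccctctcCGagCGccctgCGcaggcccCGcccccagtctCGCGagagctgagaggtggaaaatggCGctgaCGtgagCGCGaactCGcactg
ZNF567: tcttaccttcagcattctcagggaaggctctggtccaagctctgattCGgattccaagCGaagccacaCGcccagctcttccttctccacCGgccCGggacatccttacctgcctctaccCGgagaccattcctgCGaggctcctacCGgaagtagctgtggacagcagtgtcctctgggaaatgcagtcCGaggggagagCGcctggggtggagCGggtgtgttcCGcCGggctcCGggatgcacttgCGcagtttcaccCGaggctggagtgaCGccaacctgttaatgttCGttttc
ZNF14: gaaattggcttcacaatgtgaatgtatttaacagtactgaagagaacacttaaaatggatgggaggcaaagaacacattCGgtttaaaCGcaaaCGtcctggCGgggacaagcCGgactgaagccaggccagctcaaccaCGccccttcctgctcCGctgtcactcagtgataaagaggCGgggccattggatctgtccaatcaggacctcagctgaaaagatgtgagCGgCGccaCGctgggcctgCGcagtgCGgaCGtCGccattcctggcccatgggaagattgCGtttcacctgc
ZNF257: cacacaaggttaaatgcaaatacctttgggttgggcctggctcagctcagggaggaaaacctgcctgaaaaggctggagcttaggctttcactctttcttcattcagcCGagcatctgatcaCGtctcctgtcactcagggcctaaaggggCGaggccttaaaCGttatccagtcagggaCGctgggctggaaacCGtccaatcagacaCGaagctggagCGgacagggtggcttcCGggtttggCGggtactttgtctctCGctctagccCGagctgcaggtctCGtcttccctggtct
ZNF730: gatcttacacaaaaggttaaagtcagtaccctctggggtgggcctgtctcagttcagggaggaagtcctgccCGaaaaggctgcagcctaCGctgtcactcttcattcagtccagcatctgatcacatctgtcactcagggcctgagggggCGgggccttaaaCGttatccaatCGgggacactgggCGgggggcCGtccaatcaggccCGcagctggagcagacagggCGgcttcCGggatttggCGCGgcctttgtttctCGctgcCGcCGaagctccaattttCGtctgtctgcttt

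The 5 windows held from 22 CG pairs in ZNF414 and 18 in ZNF567 to 16 in ZNF14 and ZNF730 and 13 in ZNF257. Over the most upstream window of each of the 228 genes the median was 20 CG (GC content 60.2%), close to the 22 of all 15843 protein-coding genes in the table. At least 10 CG stood in 92.5% of the zinc finger windows and in 72.8% of all. The 4 genes with an NC peak had a median of 21.5 and the 14 with an OE-KDM4A peak and a window 14, which is a description of few genes and was not tested. Most of these 14 lie in the clusters ZNF653 to ZNF791 and ZNF101 to ZNF254, whose windows had medians of 16 and 10 with or without a peak.

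The promoters also show how alike genes of one cluster can be. The windows of ZNF257 and ZNF730 were 77.7% identical (1 minus the edit distance over 300 bases), while the median over all pairs of the 228 windows was 46.3%. In the cluster from ZNF101 to ZNF254 the best match of a window to another gene had a median identity of 82%, and 27 of its 29 best matches lay in the same cluster. ZNF486 matched ZNF626 at 87.3% and ZNF257 matched ZNF85 at 82%. In the cluster from ZNF653 to ZNF791, ZNF439 and ZNF69 matched each other at 85%. The 3 genes with the highest −log10 q in OE-KDM4A, ZNF14, ZNF136 and ZNF875, had best matches between 51.7% and 56.3%, and ZNF567, the highest in NC, 52.3%. These values are at or below the median of 56.3% over all 228 windows. The summits of these 4 genes lay 10.6 to 39.6 kb from the nearest start. The identity of the windows therefore does not show how unique the sequence under the peaks is. How the authors treated reads that match several copies is not stated in the labels, so peaks at the duplicated genes are uncertain as to their copy.

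The distance from each gene to the nearest peak shows how sparse the lists were. Its median was 475 kb in NC (quartiles 237 and 962) and 346 kb in OE-KDM4A (116 and 2300). On this chromosome the lists were of similar length, with 45 NC and 42 OE-KDM4A peaks. An OE-KDM4A peak was nearer for 128 genes and an NC peak for 132, and 4 were at equal distance. The 132 include all 70 genes of the cluster from ZNF628 to ZNF446. These 70 share the same nearest NC peak, 246 kb before the cluster, so they are not separate observations. ZNF446, the last gene of the cluster without peaks, was the farthest in both, at 3250 kb and 5170 kb. The median for the other genes of chromosome 19 was 325 kb in NC and 661 kb in OE-KDM4A. It was thus shorter than that of zinc finger genes in NC and longer in OE-KDM4A. The order in OE-KDM4A depended on list length. With that list limited to its 1165 peaks of highest −log10 q, the median was 2670 kb for the other genes and 4260 kb for zinc finger genes.

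**Figure D5:**
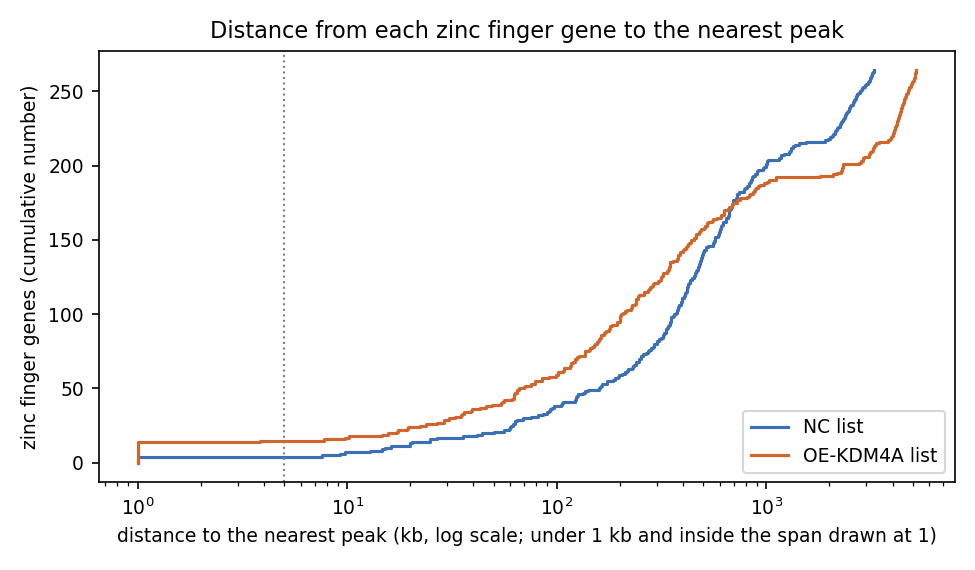
Cumulative number of the 264 zinc finger genes (y axis) by distance to the nearest peak (x axis, kb on a log scale, with distances under 1 kb drawn at 1) in the NC and OE-KDM4A lists, the dotted line marking 5 kb. The OE-KDM4A line is higher at short distances (39 against 20 genes within 50 kb) and lower beyond 1000 kb, where the genes of the last cluster lie.

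Just outside the 5 kb limit and within 50 kb lay 16 further genes in NC and 24 in OE-KDM4A. The nearest in NC were ZNF534 (7.57 kb from a ZNF578 peak), ZNF14 (9.27 kb) and ZNF285 (9.8 kb). In OE-KDM4A they were ZNF253 (7.76 kb), ZNF285 (9.77 kb) and ZNF616 (10.2 kb from the ZNF836 peak). ZNF285, ZNF229, ZNF112 and ZNF85 were in this range in both lists. ZNF93 lay 42.9 kb from an OE-KDM4A peak. In NC, ZNF331, an imprinted gene, lay 19.9 kb from the ZNF813 peak, and ZNF473, whose product takes part in histone mRNA processing, lay 19.9 kb from a peak at 50068644 to 50068767.

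Other gene families of chromosome 19 were counted in the same way. Of 94 genes of 9 families (kallikreins, CEACAM, PSG, SIGLEC, LILR, KIR, NLRP, CYP2 and CYP4), 1 had an NC peak, the leukocyte receptor gene LILRB1, and 2 had an OE-KDM4A peak, the cytochrome P450 genes CYP2A13 and CYP2S1. The shares were 1.06% (0.0269 to 5.79) and 2.13% (0.259 to 7.48), and both intervals include the share of all protein-coding genes (2.45% and 5.34%). A list of 32 genes linked to H3K9me3 silencing was also counted, including TRIM28, SETDB1 and the HP1 genes CBX1, CBX3 and CBX5. It also takes in the KDM4 demethylases, which act against the mark. At these 32 genes no NC peak was found. OE-KDM4A had peaks at 1, KDM4C, a demethylase gene related to KDM4A. The shares of 0 (0 to 10.9%) and 3.12% (0.0791 to 16.2) likewise include those of all protein-coding genes in their intervals. TRIM28 itself lies on chromosome 19 and had no called peak.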

How the data were processed

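H3K9me3 ChIP-seq peak lists of the NC and OE-KDM4A libraries were used (1 each), and the 2 input libraries were not analysed by themselves. The submitters' processing notes name Trimmomatic, Bowtie 1.1.2, MACS2 2.1.0 and hg38 but no settings. The deposited lists give per summit a linear fold enrichment (ratio), −log10 p and −log10 q values, and a score equal to 10 times the −log10 q without decimals in all lines. Repeated intervals were merged into 1 peak, keeping the line of highest −log10 q (69 of 1234 removed in NC, 402 of 4187 in OE-KDM4A).

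Gene spans came from the RefSeq table of GRCh38.p14, and strands, starts and sequences from the RefSeq promoter table. Proteins and exons were not used here, so promoter windows took the place of the planned protein features. A gene counted where a peak interval overlapped its span or 5 kb beside it. Clusters were split at gaps over 1 Mb. Intervals are Clopper-Pearson for shares and exact Poisson for densities. Pileup and background were recovered from MACS2's known formulas, fold = (pileup + 1) / (background + 1) and a Poisson p (within 0.001 of the deposited −log10 p). A limit for a count of 0 genes is 3 over the number of genes, and the one for peaks per Mb is the upper Poisson bound. The members and lists were chosen with earlier results of these data known. The rule for named genes took every member with a peak and the members within 50 kb of a peak (of these the nearest and those of known role are named). It also took the first and last gene of each cluster and any gene with a peak in the list of 32 silencing-linked genes. Steps were tested on simulated data. The work used scipy 1.17.1, pandas 2.3.3 and numpy 2.4.6 in Python 3.11.15, with figures by matplotlib 3.10.9.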

Additional observations from a re-analysis of the deposited data

How the results depend on the processing

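The number of zinc finger genes with a peak stayed at 4 in NC and between 13 and 15 in OE-KDM4A for the gene span alone, 1 kb, joined peaks, summits, ZNF symbols only and, chosen after seeing the data, without the 4 hyphenated loci. Within 10 kb it was 7 in NC and 17 in OE-KDM4A, and within 50 kb 20 and 39. With −log10 q limited to 3 or more it was 2 and 7, with 5 or more 0 and 3, and with a fold enrichment of 5 or more 1 and 5. OE-KDM4A had more such genes than NC at each of these limits, but with lists of equal length it had 2 against 4. The share of all protein-coding genes moved the same way. It was 2.45% in NC and 5.34% in OE-KDM4A at the main rule, 0.429% and 1.16% at −log10 q of 5 or more, and 0.794% in OE-KDM4A at equal length. It was not computed at the other limits, so these counts do not set the zinc finger genes apart. Gaps of 0.5 Mb and 2 Mb gave 20 and 7 clusters in place of 16, with 3 NC clusters holding a member with a peak in each case and 5 and 4 in OE-KDM4A. The median distance to the nearest peak was 3120 kb in NC and 1870 kb in OE-KDM4A for peaks with −log10 q of 5 or more, 4950 and 3050 kb for those with a fold of 5 or more, and 4260 kb in OE-KDM4A at equal list length, where fewer peaks remained. Counting summits beyond mid-span in place of the last of 3 equal parts gave 4 in NC in place of 2 and 11 in OE-KDM4A in place of 4, and with interval midpoints the last part kept 2 and 4 while the count beyond mid-span was 3 in NC and 11 in OE-KDM4A. The depth of each library is unknown. No paired analysis was possible because each group has 1 library and the results come from no test.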
